A study of Mus musculus with 6 samples.

Results

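The nuclei described are those of maternal livers at the gestation stage G14.5: 525 of the 1567 nuclei of the series, taken by the stage written in the column names of the count tables. They came from female wild-type (WT) C57BL/6J mice in 2 libraries, with 224 nuclei from a liver tissue preparation and 301 from a perfused liver. The labels name no animal, so each preparation is 1 library of an unknown number of mice and nuclei are not replicates of the stage. Sample titles and column names speak of nuclei, while the protocol in the labels describes picking of collagenase-dissociated hepatocytes into plates for Smart-seq3xpress, a plate method that reads along whole transcripts. Hepatocyte markers held a median summed level of 16663 CPM in liver tissue and 16355 CPM in perfusion (CPM, a count scaled to the total of its nucleus, where 1 of 250000 reads is 4 CPM), with at least 6913 CPM in every nucleus, and all 10 markers were present.

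A liver lobule runs from the portal triad, where oxygen-rich and nutrient-rich blood enters, to the central vein, where it drains. Hepatocytes beside the portal triad (periportal) are known for urea synthesis, amino acid breakdown and glucose production. Those beside the central vein (pericentral) are known for glutamine synthesis, bile acid synthesis and cytochrome P450 enzymes, and the ring next to the vein is held in its state by Wnt signals. In pregnancy the liver grows and reads growth hormone and prolactin-like hormones through their receptors.

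Median depth was 1077017.5 reads per nucleus in liver tissue (277342 to 3334055) and 1191576 in perfusion (29994 to 3480635). Thinning to 250000 reads a nucleus kept 224 and 300 nuclei, with medians of 5995.5 and 6037.5 genes. No 2 nuclei held identical counts. In both libraries, nuclei with high numbers in their column names differed from those with low numbers, a split the labels do not explain. The median of genes was 5698.5 up to number 98 and 6323 above it in liver tissue, and 5816 up to number 149 and 6313 above it in perfusion. Of 5351 genes examined, 24 had a rank correlation (rho) of at least 0.3 in size with the number, of 1 sign, in both libraries, among them Apoa1, an HDL apolipoprotein (-0.41 and -0.63). The zone score used below had a rho of 0.05 and 0.07 with the number, and zone and variability calls are given within these runs too. Genes lying wholly inside another gene on the same strand had 0 reads in 96.9% of cases (252 of 260 coding genes) and those inside 1 on the other strand in 91.5% (580 of 634), against 16.0% of other coding genes. A 0 of such a gene, Xist within Tsix in these female mice included, therefore does not show absence of its RNA.

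Markers of other cell types were low. The summed level of 10 endothelial markers had a median of 15.1 and 12 CPM (highest nucleus 177 and 333), and the macrophage list 7.62 and 3.07 CPM (highest 369.5 and 224). The stellate list had medians of 11.2 and 5.27 CPM with 1 perfusion nucleus above 1000 CPM. The cholangiocyte list reached 112 and 133 CPM, nearly all of it Pkhd1 at 118 and 109 CPM on average, and 3 of its genes passed the expression filter used below. T, B, neutrophil and erythroid lists had medians from 0 to 4.69 CPM. No gene of the endothelial, macrophage, stellate, T, B, neutrophil or erythroid lists passed that filter, and their part in the variation below was not tested.

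The growth hormone, leukemia inhibitory factor and prolactin receptor genes were among the 4 genes with the most reads. Ghr, the growth hormone receptor, had a median of 23750 CPM in liver tissue (quartiles 16407 and 31999) and 26010 in perfusion. It alone took 2.63% and 2.65% of all reads. Next came the nuclear RNA Malat1 with medians of 16644 and 19260 CPM, then Lifr, the receptor of leukemia inhibitory factor, with 13320 and 12258. Prlr, the prolactin receptor, stood at 9018 and 11252 CPM and Alb, serum albumin, at 7840 and 6550. All 5 genes had reads in every nucleus, and quartile ranges of the libraries overlapped for each. Ghr was lower in nuclei of higher number (rho -0.43 and -0.22). Adk (adenosine kinase, 5820 and 6556), Immp2l (a mitochondrial inner membrane peptidase subunit, 5254 and 5172) and Dpyd (pyrimidine breakdown, 4282 and 4996) are very long genes. The 10 leading genes were completed by B3galt1, a galactosyltransferase, and Ppap2b, a lipid phosphatase, at 2672 and 3640 CPM in liver tissue and 3138 and 3250 in perfusion.

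**Figure D1:**
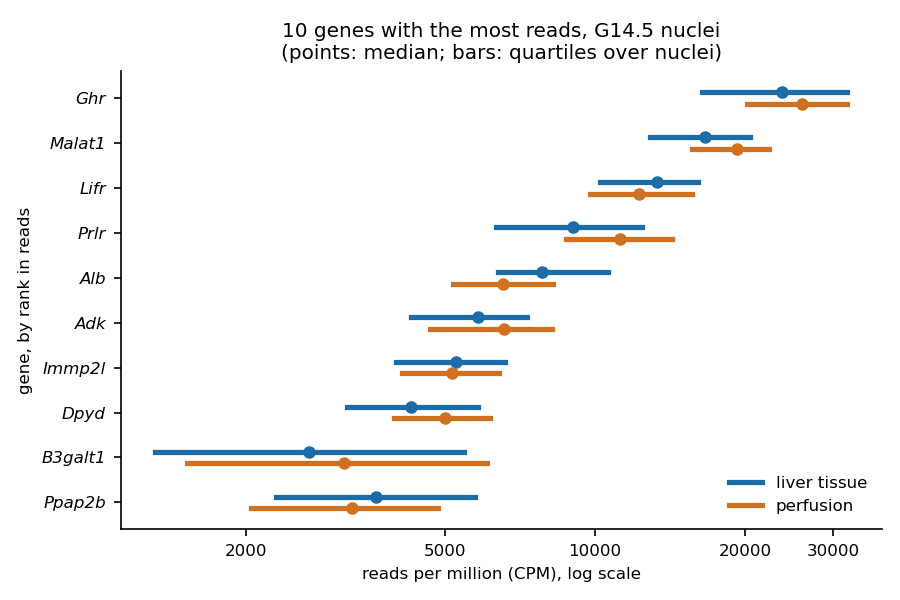
CPM (log axis) of the 10 genes with the most reads in G14.5 nuclei, as median (point) and quartiles (bar) over the nuclei of each library. Ghr leads with medians of 23750 and 26010 CPM, and B3galt1 has the widest quartile range on this axis, from 1313 to 5471 CPM in liver tissue.

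The 100 leading genes took 25.1% of the reads in liver tissue and 25.8% in perfusion. Of the 50 leading genes of each library, 45 were shared. Genes that led by reads were long: the 50 leading genes had a median length of 141792 bases, against 27279 for the 50 leading genes in the authors' deposited values, which divide by a length per gene. The lists shared 30 genes. On the length-scaled values Lifr ranked 15 and Prlr 22 (means of 421 and 397, and 302 and 356). Snord118, a small nucleolar RNA, led there with means of 1886 and 2273 on a scale where a nucleus sums to about 100000, followed by Ghr (1839 and 1913) and Snord13 (1664 and 2008). Short genes of secreted and binding proteins ranked high there. Apoa2 had means of 1630 and 1175, Alb 1392 and 1055, the fatty acid binder Fabp1 730 and 862, the corticosteroid carrier Serpina6 700 and 651, and the fetuin gene Ahsg 459 and 484. Thrsp, a regulator of fat synthesis, had 695 and 987, and the metal binder Mt1 331 and 564. Of the 50 leading genes by reads, 6 followed the zone score described below, among them B3galt1, Cps1 and Abcc2, beside 3.35% of all genes examined. Ghr was nearly flat along it (rho 0.06 in both libraries), as was Lifr (0.04 and 0.16).

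To find genes that varied more than others of like level, the squared coefficient of variation (CV2) over nuclei was set against its trend over the mean, for the 5351 genes with a mean of at least 20 CPM and reads in at least 20% of nuclei in both libraries. A gene was called variable at a CV2 of at least 2 times the trend. This held for 387 genes (7.23% of those examined) in liver tissue, 412 (7.7%) in perfusion and 169 (3.16%) in both. Over genes, which are not independent replicates, the ratio to the trend had a rho of 0.65 between libraries. The threshold cuts through a continuous range: Fam219b lay just inside at a smaller ratio of 2.01, and Ppm1k just outside at 1.9999. Of the 169 genes, 64 were also called in each of the 4 runs of nucleus numbers, where 76 genes were called in all.

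The gene with the largest ratio was Slc1a2, the glutamate transporter GLT-1 (chromosome 2, 102658659 to 102790784 on GRCm38). Its CV2 was 12.95 times the trend in liver tissue and 12.16 times in perfusion, with a ratio of at least 9.84 in every run. Its median was only 8 CPM in liver tissue (quartiles 4 and 44) and 4 CPM in perfusion (0 and 16), while single nuclei reached 13184 and 8496 CPM. In liver tissue 31 of 224 nuclei had at least 1000 CPM, or 13.8% (exact Clopper-Pearson 95% interval 9.60% to 19.1%), and in perfusion 27 of 300, or 9.0% (6.02% to 12.8%). Such intervals cover counting error over nuclei alone. These nuclei held 94.3% and 91.5% of all Slc1a2 reads. By run, the share was 6.12% (2.28% to 12.9%) and 19.8% (13.3% to 27.9%) in liver tissue and 9.40% and 8.61% in perfusion, so the liver tissue share rests mostly on its later numbers.

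The Slc1a2-high nuclei sat at the pericentral end. On a zone score computed without Slc1a2, 30 of the 31 and all 27 fell in the most pericentral tertile of their library. Genes beside Slc1a2 were then compared between these nuclei and the rest, as a description of nuclei picked by Slc1a2. Lgr5, the R-spondin receptor of Wnt signalling, averaged 109 and 108 CPM in them against 7.88 and 3.94 in the rest. Glul, glutamine synthetase and the classical marker of the hepatocytes around the central vein, averaged 591 and 329 against 34.8 and 44.1 CPM, and was itself a variable gene (ratio 4.71 and 3.02, but 1.14 in the second perfusion run). The Wnt target Axin2 had 29.6 and 8.15 CPM against 3.94 and 1.11, and Sp5, another Wnt target, 10.3 and 3.85 against 0 and 0.0586. Both were near the floor: Axin2 had reads in 45.2% and 40.7% of the Slc1a2-high nuclei, and Sp5 in only 16.1% and 11.1%. Rhbg had 9.42 and 7.70 CPM against 5.47 and 1.08, and Nkd1 1.29 and 2.37 against 0.0207 and 0.498. Rnf43, a Wnt feedback ligase, went from 122 and 103 to 485.5 and 466 CPM, and the repressor Tbx3 from 34.1 and 28.0 to 129 and 138. Sgcz, a sarcoglycan, averaged 761.7 and 173 CPM in the Slc1a2-high nuclei against 2.51 and 2.68 in the rest, and the transporter Slc22a3 89.9 and 101 against 9.29 and 9.13. Cyp2e1 was higher there as well (1114 and 1276 against 267 and 264 CPM), but the rest held it as well, with reads in 95.3% and 96.3% of nuclei. Oat, also known from the venous ring, had 0 reads in both sets. This 0 need not mean absence of its RNA, as its overlap with other genes is not given here.

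Sult3a1, a sulfotransferase, followed with ratios of 6.70 and 5.83 (chromosome 10, 33857721 to 33879532). Medians were 104 and 118 CPM and upper quartiles 1305 and 782 CPM, with reads in 95.5% and 94.7% of nuclei. Further pericentral genes among the variable ones were the P450 genes Cyp2c69 (ratio 5.04 and 5.22), Cyp2c38 (3.95 and 5.29) and Cyp4a14, a fatty acid omega-hydroxylase (3.18 and 3.40). Reads of Cyp2c genes can be shared with near-identical copies, so their split is uncertain. Rsph4a, a radial spoke protein of cilia (6.39 and 5.57), and Rcan2, a calcineurin inhibitor (4.88 and 9.28), had a median of 0 CPM but also followed the pericentral end. So did Airn, a noncoding RNA that overlaps Igf2r on the other strand, with 4.62 and 3.53. In all, 26 of the 169 variable genes followed the zone score, or 15.4%, beside 3.35% of all genes examined (16 pericentral and 10 periportal).

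Most variable genes did not follow zone. Many were seen in few nuclei: 70 of the 169 had reads in under 50% of nuclei in both libraries, and 21 had reads in at least 95%. Zfp85os (5.80 and 5.45), the lung surfactant protein gene Sftpd (4.04 and 4.91), the E3 ligase gene Lonrf3 (4.25 and 3.92) and the glucose-6-phosphatase relative G6pc3 (3.68 and 5.01) had a median of 0 CPM. The 10% of nuclei with the highest level held 96.6% and 94.8% of the Sftpd reads, where the median over all genes was 49.3% and 48.1%. Ect2, an exchange factor of cytokinesis, had ratios of 6.45 and 4.93 with reads in 27.2% and 28.0% of nuclei and up to 3016 and 1576 CPM in single nuclei. Dnase1l3 (3.93 and 3.79), Myo9a, Ntan1, Itm2c, Atp13a1, Prmt10 and Cyp4a14 fell below the threshold in at least 1 run of nucleus numbers. The lowest of those ratios were 0.51 for Prmt10 and 0.68 for Dnase1l3. Of the genes named below as variable, so did Irf1 (lowest ratio 0.56), Neat1 (1.13), Vwf (1.58), Car3 (1.60), Scd1 (1.83), Cps1 (1.93), Ttr (1.94) and Ghr (1.97).

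Among the 21 variable genes present in nearly all nuclei were Thrsp, B3galt1, Asl, Cps1, Pnpla3, Bhmt and Car3. Thrsp had reads in every nucleus and ratios of 4.36 and 4.33, with quartiles of 787 and 3880 CPM in liver tissue and 1491 and 5715 in perfusion. Its ratio was at least 4.38 in every run, and its rho with the zone score was -0.29 and -0.19, under the threshold of 0.3. By the smaller rho of the libraries, the genes most like it were Uroc1 (rho 0.34 and 0.33), Uox (0.32 and 0.31) and Pnpla3 (0.43 and 0.28). B3galt1 (3.68 and 4.69) was also present in every nucleus and had a rho of 0.44 with Uroc1 in both libraries. Asl, the urea cycle enzyme argininosuccinate lyase, had ratios of 3.53 in both libraries, with quartiles of 74 and 1682 CPM in liver tissue and 256 and 2255 in perfusion. Ghr itself was called at 2.57 and 2.27, with a CV of only 0.46 and 0.36, as the trend is low at its level. By list, beside 3.16% of all genes, 3 of 17 genes of fatty acid synthesis were variable (Scd1, Thrsp, Pnpla3), 2 of 18 of amino acid catabolism (Cps1, Asl), 2 of 20 plasma protein genes (Ttr, Vwf) and 0 of 13 of the unfolded protein response. In cholesterol synthesis 0 of 17 were variable, and in the ribosomal protein list 0 of 7. Of 10 genes of prolactin and growth hormone signalling only Ghr was, of 6 nuclear noncoding RNAs Neat1 and Airn, and of 3 interferon response genes Irf1. Further genes of high ratio were Clec2h, a lectin with a periportal rho of -0.37 and -0.45 (4.06 and 4.36), and the zinc finger gene Zfat (3.71 and 4.72).

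**Figure D2:**
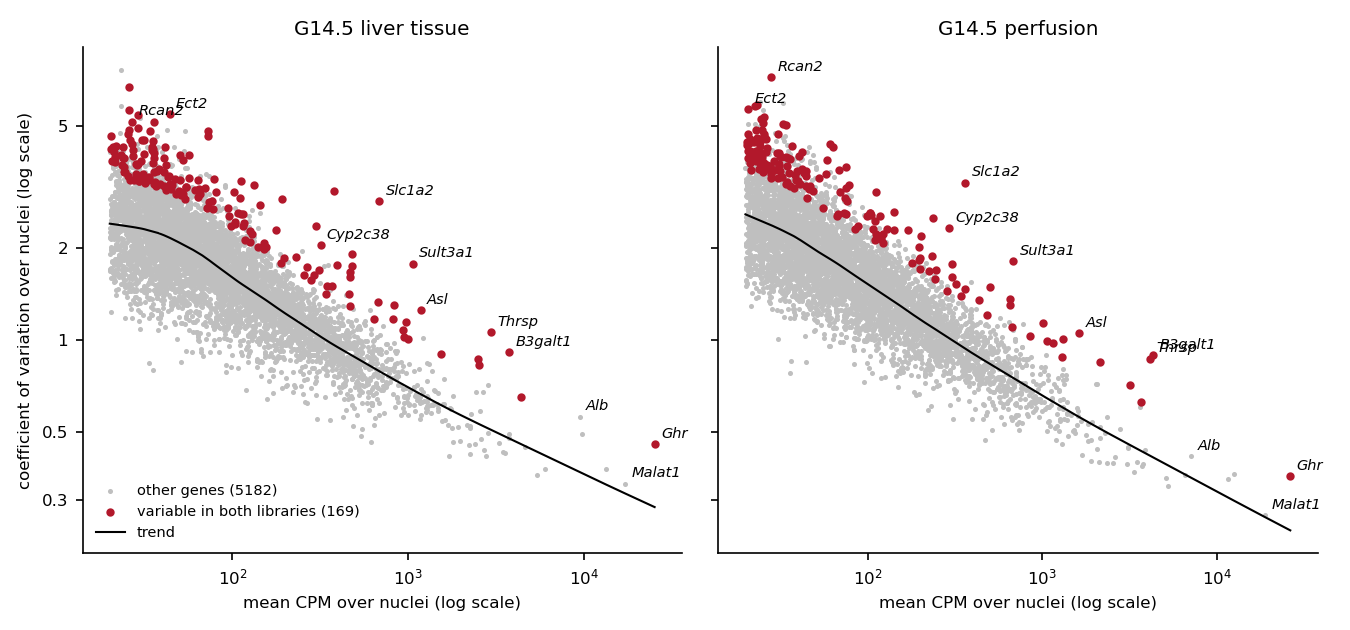
Coefficient of variation over nuclei against mean CPM (both log axes) for 5351 genes in each library, with the trend as a line and the 169 genes variable in both libraries in red. Slc1a2 (CV 2.84 and 3.26) lies far above the trend, and Malat1 (0.34 and 0.27) lies near it.

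Hepcidin, which controls iron export, is encoded by Hamp, which was variable too (5.45 and 3.15), though its ratio was 1.22 in the first liver tissue run and 5.43 in the second. It had a median of 8 and 4 CPM but a mean of 192 and 118, with reads in 63.8% and 62.3% of nuclei. Its rho with the nucleus number was 0.43 in liver tissue and 0.17 in perfusion. The gene most like it was its neighbour copy Hamp2 (rho 0.40 and 0.41), which followed the periportal end (-0.41 and -0.43). Reads of such copies can be shared between them.

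Genes in 2 clean states were then sought among 20519 genes, fewer than the 22413 with at least 1 read in these libraries before thinning. Off meant 0 reads, on at least 100 CPM (25 of 250000 reads), and a gene was called when at least 20% of nuclei were off, at least 20% on and at most 20% between. No gene met this in both libraries or in either alone. At least 20% off and at least 20% on was met by 68 genes (0.331%), but each of them had at least 32.0% of nuclei between these states in at least 1 library. The nearest was Zfp691, a zinc finger gene. In liver tissue 100 of its 224 nuclei were off (44.6%, interval 38.0% to 51.4%) and 56 on (25%, 19.5% to 31.2%), and in perfusion 120 of 300 were off (40%) and 84 on (28.0%). When on, it had a median of 182 and 218 CPM.

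Then came Dnah8, an axonemal dynein gene, with 40.2% and 29.3% off and 25% and 37.7% on, and Cyp4a14 with 39.7% and 35.7% off and 33.0% and 28.7% on. Mzt1 and Klhl9, which act at the mitotic spindle, had 38.4% and 32.6% of nuclei off in liver tissue and 42.7% and 40.7% in perfusion. Aspg, an asparaginase, was off in 44.2% and 28.0% and on in 21.0% and 32.3%. Of the 68 genes, 10 followed zone, beside 3.35% of all genes: at the periportal end Aspg, Hal, Gls2 and Cyp2f2, and at the pericentral end Cyp4a14, Cyp2c38, Rnase4, Erc2, Cd36 and Fam107b. Zfp691 (rho 0.03 and -0.13), Dnah8 (-0.06 and 0.09), Mzt1 (0.08 and -0.01) and Klhl9 (0.14 and -0.01) did not reach the zone threshold. With at most 40% between, 8 genes were called. With on at 10 reads and at most 30% between, 37 were.

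**Figure D3:**
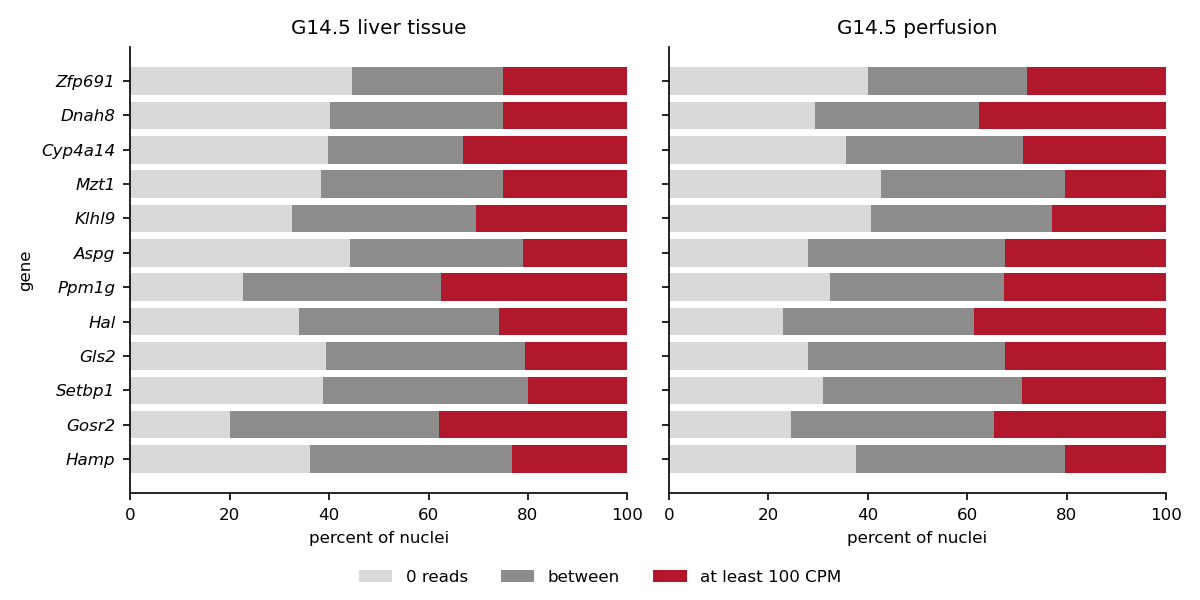
Percent of nuclei with 0 reads (light), between (grey) and at least 100 CPM (red) in each library, for the 12 named genes nearest to 2 separate states. Even Zfp691, at the top, has 30.4% and 32.0% of nuclei between.

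Position along the lobule was read from a zone score: the mean standardised level of 13 pericentral genes minus that of 19 periportal genes, each gene compared with a score that leaves it out. Pericentral and periportal means ran against each other over nuclei with a rho of -0.81 in liver tissue (n = 224) and -0.78 in perfusion (n = 300). The nuclei of a library share its preparation and depth, so these are descriptions. The score had little relation to the number of genes detected (0.08 in both) or to reads (-0.00 and 0.05). In a principal component analysis of the 5351 genes the second component followed the score (rho 0.92 and 0.94 in size), with 2.095% and 2.11% of the variance. The first, with 3.69% and 3.65%, followed the number of genes detected (0.93 and 0.89).

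A rho of at least 0.3 was reached by 129 genes (2.41%) in liver tissue and 141 (2.64%) in perfusion, and a rho of at most -0.3 by 96 (1.79%) and 107 (2%). In both libraries, 103 genes (1.92%) followed the pericentral end and 76 (1.42%) the periportal end, and 0 went opposite ways in the libraries. Of the list genes that passed the filter, 10 of 13 and 13 of 17 followed their own end. Outside the lists, the counts were 92 of 5321 genes (1.73%) and 63 (1.18%). In each of the 4 runs of nucleus numbers, 70 and 55 genes were called. The thresholds cut a continuous range: Alad was just inside at 0.300 and Hsd3b3 just outside at 0.298, and Crcp and Ppargc1b at 0.304 and 0.299 in size at the periportal end.

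**Figure D4:**
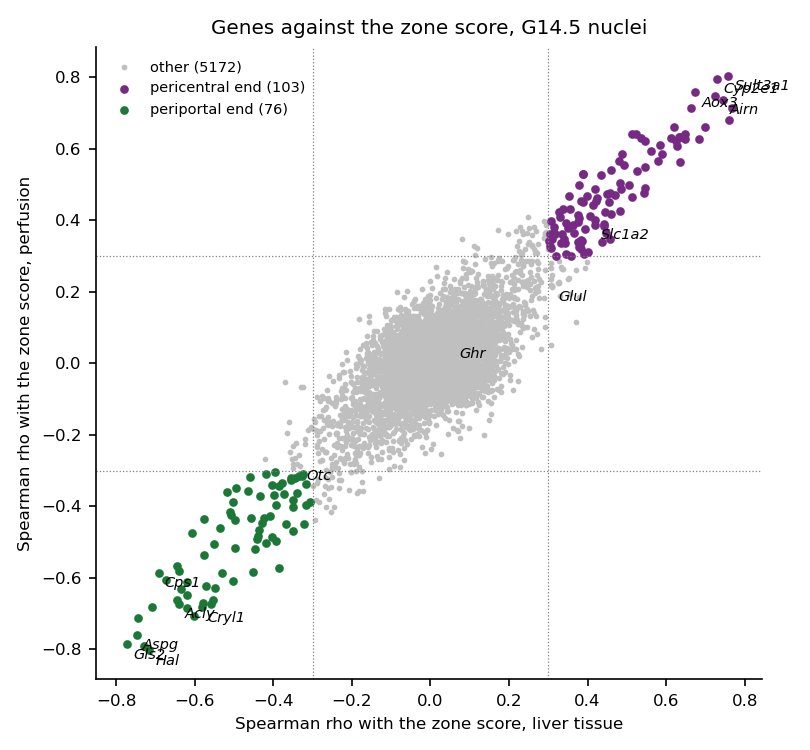
Spearman rho of each of 5351 genes with the zone score in the liver tissue library (x) and the perfusion library (y), with the thresholds at 0.3 dotted. The 103 pericentral and 76 periportal genes lie along the diagonal up to 0.80 in size, while Ghr lies at 0.06 in both.

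At the pericentral end, outside the lists, Sult3a1 led with a rho of 0.76 and 0.80. From the periportal tertile of nuclei through the middle to the pericentral tertile its mean went from 67.8 to 629 to 2515 CPM in liver tissue and from 24.2 to 262 to 1765 in perfusion. Airn (0.75 and 0.74) went from 41.3 to 1160 and from 11.3 to 535 CPM between the end tertiles. Next were the organic anion and bile acid importer Slco1b2 (0.72 and 0.75), the aldehyde oxidase Aox3 (0.67 and 0.76), Cyp3a41a (0.70 and 0.66), the glycerol channel Aqp9 (0.65 and 0.64) and Cyp2c38 (0.63 in both). Regulators were among them: Ahr, the dioxin receptor (0.64 and 0.63), went along the score from 54.4 to 400 CPM and from 51.4 to 393. Esrrg, an orphan nuclear receptor (0.63 in both), went from 87.8 to 591 and from 98.8 to 579. Ube2e2, a ubiquitin-conjugating enzyme, Akr1c6, a hydroxysteroid dehydrogenase, and Cyp3a16 completed the leading genes at 0.62 to 0.68. In the list genes themselves Cyp7a1, the rate-limiting enzyme of bile acid synthesis, had 0.77 and 0.71, Cyp2e1 0.73 and 0.80 and Gulo, of vitamin C synthesis, 0.76 and 0.68. Glul reached 0.31 and 0.22 and was not called, with 15.9, 40.2 and 281 CPM across the tertiles in liver tissue and 32.6, 45.7 and 131 in perfusion. Cyp1a2 (0.23 and 0.37) was not called either.

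At the periportal end Aspg led outside the lists (-0.75 and -0.76), with 133, 39.3 and 1.24 CPM across the tertiles in liver tissue and 189, 73.1 and 5.60 in perfusion. Amdhd1 (-0.71 and -0.68) and Ftcd (-0.65 and -0.66) stand in the histidine breakdown path after the list genes Hal (-0.72 and -0.80) and Uroc1 (-0.74 and -0.71). Thus 4 successive enzymes of that path followed the same end, 2 of them through their place in the score's own list. Acly, ATP citrate lyase (-0.64 and -0.67), and the lipid droplet protein Pnpla3 (-0.62 and -0.65) represent fat synthesis. Dnah11, a dynein gene (-0.64 and -0.63), Fgfr2, a fibroblast growth factor receptor (-0.62 and -0.61), Cryl1, a crystallin of the glucuronate path (-0.58 and -0.68), Cyp17a1, the steroid 17-hydroxylase (-0.64 and -0.58), and the serine carrier Sfxn1 (-0.58 and -0.67) followed. Plxna2 (-0.57 and -0.62) and the Wnt pathway repressor Tcf7l1 (-0.55 and -0.66) completed the leading genes. Cryl1 was steep, with 304, 2.51 and 2.70 CPM in liver tissue and 329, 35.8 and 1.92 in perfusion. Gls2, liver glutaminase and a list gene, had the largest rho of this end in liver tissue (-0.77, and -0.79 in perfusion), with 144, 42.9 and 3.30 CPM and 194, 105 and 3.00 CPM.

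Across the 24 leading genes outside the lists, the smallest rho in any of the 4 runs was 0.57 in size at the pericentral end (Cyp3a16) and 0.46 at the periportal end (Tcf7l1). Counts of Aspg, Pnpla3, Fgfr2, Cryl1, Dnah11, Tcf7l1, Aox3, Airn and Ube2e2 are uncertain where each overlaps another gene. So are those of B3galt1, Rcan2, Slc1a2, Glul, Gls2 and Ect2. The notes do not say whether strand was used. Coding genes inside another on the other strand had 0 reads in 91.5% of cases, against 16.0% of those not inside another gene. The effect of overlap on the counts of the genes named here was not tested.

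**Figure D5:**
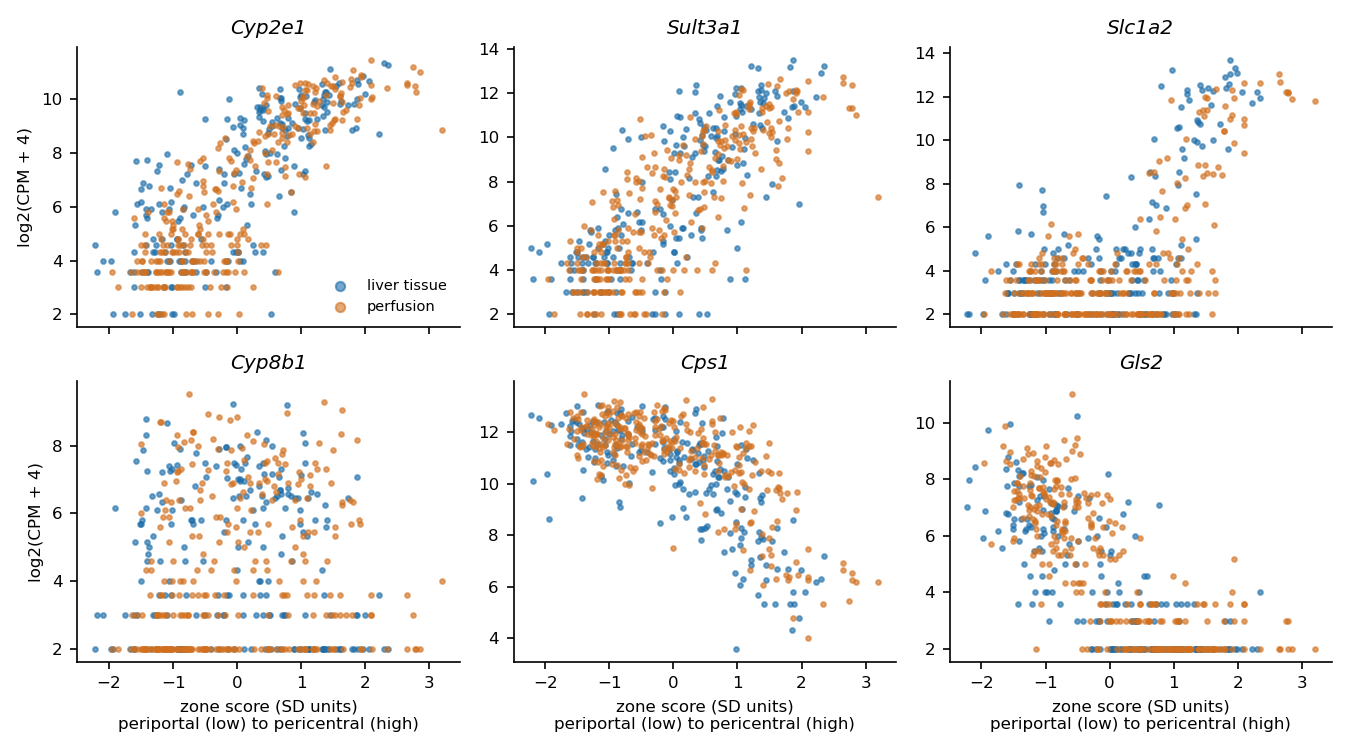
Level of 6 genes, as log2(CPM + 4), in each nucleus against its zone score, with periportal nuclei at the left and the libraries in 2 colours. For the list genes Cyp2e1, Slc1a2, Cps1 and Gls2 the plotted score includes the gene. Sult3a1 climbs over the whole range, whereas Slc1a2 is high at the right. On a score that leaves Slc1a2 out, 30 of its 31 and 27 of its 27 high nuclei lie in the last tertile.

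The counts by list stand beside 1.92% of all genes at the pericentral end and 1.42% at the periportal end. In amino acid catabolism and the urea cycle, 10 of 18 measured genes followed the periportal end, among them Cps1 (-0.69 and -0.59), Asl (-0.67 and -0.61), Ass1 (-0.65 and -0.57) and Arg1 (-0.61 and -0.48). The median rho of the list was -0.39 and -0.46, beside 0.01 over all genes in both libraries. Of the 10 genes, all but Got1 and Kynu belong to the periportal list of the zone score. The count and the median are therefore not independent of the choice of that list. Otc was just short of the threshold at -0.33 and -0.29. In fatty acid and triglyceride synthesis 4 of 17 genes followed the periportal end (Acaca, Acly, Elovl6, Pnpla3) and 0 the pericentral end. In fatty acid oxidation 4 of 18 followed the pericentral end: Acaa1b (0.58 and 0.56), Cyp4a14 (0.49 and 0.59), the uptake receptor Cd36 (0.54 and 0.48) and Cyp4a10 (0.45 in both). In glycolysis and gluconeogenesis 4 of 14 followed the periportal end, among them Fbp1 (-0.55 and -0.51), pyruvate kinase Pklr (-0.47 and -0.36) and Pygl (-0.33 and -0.31). Of these, Fbp1 is itself in the periportal list of the score. Pck1 (-0.42 and -0.27) was not called.

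In bile acid synthesis and transport 6 of 16 genes followed the pericentral end, with Cyp7a1 and Slco1b2 ahead of Slco1a1 (0.62 and 0.66), Cyp7b1 (0.46 and 0.48), Abcc2 (0.43 and 0.53) and Cyp27a1 (0.38 and 0.32). Of these, Cyp7a1 and Cyp27a1 are themselves in the pericentral list of the score. Cyp8b1, which steers synthesis to cholic acid, peaked in the middle tertile instead (57.0, 88.0 and 51.3 CPM in liver tissue and 42.3, 84.6 and 67.3 in perfusion). Xenobiotic metabolism had 4 of 13 pericentral genes (Aox3, Gsta3, Por, Cyp3a11) and 0 periportal ones. Of 13 hepatocyte transcription factors, Nr1i3, the receptor CAR, followed the pericentral end (0.46 and 0.42) and the estrogen receptor Esr1 the periportal end (-0.35 and -0.40). Of the 4 midlobular genes Hamp2 and Igfbp2 (-0.44 and -0.49) followed the periportal end. The imprinted gene Peg3 did so too (-0.32 and -0.45). Where 3.35% of all genes followed either end, 0 genes reached the threshold in the lists of the unfolded protein response (13 measured), cholesterol synthesis (17), acute phase (16), plasma proteins (20), the clock (10), oxidative phosphorylation (13) and ribosomal proteins (7).

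Promoter letters were compared between the ends. RefSeq promoters of the GRCm38.p6 assembly (the 250 bases before the start) were found for 69 of the 103 pericentral and 51 of the 76 periportal genes and searched on both strands for CTTTGAT (TCF/LEF), CAAAGTCCA (HNF4A) and TATAAA (the TATA box). Shown 5′ to 3′, with matches in capitals, are 2 near-identical pericentral P450 promoters that hold the HNF4A letters and 2 periportal promoters of the histidine path. They are Cyp3a41a (chr5:145720137-145720386, minus strand), Cyp3a16 (chr5:145469724-145469973, minus), Hal (chr10:93488518-93488767, plus) and Ftcd (chr10:76575398-76575647, plus).
Cyp3a41a: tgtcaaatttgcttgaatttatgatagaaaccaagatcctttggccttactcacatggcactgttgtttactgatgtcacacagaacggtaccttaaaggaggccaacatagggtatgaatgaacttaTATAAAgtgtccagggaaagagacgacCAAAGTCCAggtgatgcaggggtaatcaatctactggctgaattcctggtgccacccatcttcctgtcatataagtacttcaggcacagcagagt
Cyp3a16: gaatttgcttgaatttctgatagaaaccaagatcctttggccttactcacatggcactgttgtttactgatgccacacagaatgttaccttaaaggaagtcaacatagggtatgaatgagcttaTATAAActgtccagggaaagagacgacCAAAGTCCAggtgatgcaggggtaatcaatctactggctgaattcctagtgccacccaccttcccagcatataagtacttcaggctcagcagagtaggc
Hal: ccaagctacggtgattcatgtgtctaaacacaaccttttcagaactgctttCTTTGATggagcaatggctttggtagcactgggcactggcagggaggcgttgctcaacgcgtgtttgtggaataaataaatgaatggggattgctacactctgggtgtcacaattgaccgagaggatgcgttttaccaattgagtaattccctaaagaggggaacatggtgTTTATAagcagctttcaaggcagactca
Ftcd: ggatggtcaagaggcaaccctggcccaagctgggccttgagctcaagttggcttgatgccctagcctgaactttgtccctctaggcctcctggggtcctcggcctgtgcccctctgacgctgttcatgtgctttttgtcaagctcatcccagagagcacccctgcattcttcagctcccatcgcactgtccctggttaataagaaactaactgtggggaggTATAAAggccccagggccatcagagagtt

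Shifted by 4 bases, the Cyp3a41a and Cyp3a16 windows had the same base at 231 of 246 positions (93.9%), and the genes followed the pericentral end alike (0.70 and 0.66, and 0.63 and 0.62). Reads of such copies can be shared between them. Their HNF4A letters ended 87 and 91 bases before the start, and their TATAAA letters ended 117 and 121 bases before it. TATAAA lay nearer in the other 2 promoters, 23 to 28 bases before the start in Hal, on the other strand, and 24 to 29 bases in Ftcd. The HNF4A letters were present in 5 of 98 pericentral promoters (5.10%), 4 of them of Cyp3a genes (Cyp3a11, Cyp3a16, Cyp3a41a, Cyp3a41b) and the other of Cyp2c69. The Cyp3a41a and Cyp3a41b windows had the same base at 249 of 250 positions, and those of Cyp3a16 and Cyp3a41b at 232 of 246. Matches in these near-copies are therefore not independent. The HNF4A letters were in 1 of 69 periportal promoters (1.45%, Slc3a1) and 0.384% of all 32851 promoters, or 0.524% of the 5343 of genes that passed the filter. TATAAA was in 16.3% of pericentral, 8.70% of periportal and 12.4% of all promoters, and in 7.02% of those of genes that passed the filter. CTTTGAT was in 4.08% of pericentral, 2.90% of periportal, 3.21% of all and 1.98% of the passing genes' promoters, with Cyp2c39, Nrp2 and Slc1a2 at the pericentral end and Hal and Pklr at the periportal end. A match is a description of letters, not of a bound site.

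Apart from zone, the pairs of genes that varied together were led by genes of plasma proteins and several small noncoding RNAs. Of all gene pairs, 698 had a rho of at least 0.4 in both libraries, where the median pair had 0.03 and 0.02. Both genes were zone genes in 610 of them and neither in 85. Pairs of the last kind joined 31 genes into 1 group that held Alb, Apoa1, Apoa2, Apoe, Apoc3, Fga, Fgb, Fgg, Ahsg, Serpina6 and Vtn. It also held the noncoding RNAs Rn7sk, Rpph1, Gas5, Snord104 and Snord118, the ferritin gene Ftl1, and Sdhc, Arl3, Gnb1l and Fopnl, which encode no secreted protein. In 29 and 30 of its 31 genes the rho with the number of genes detected was below 0, as in 8.02% and 8.52% of all genes examined. Apoa2 had a rho of -0.58 and -0.51 with the number of genes, Apoa1 -0.49 and -0.40 and Serpina6 -0.40 and -0.36. The rho with the nucleus number was below 0 in 25 and 29 of the 31, beside 30.8% and 29.7% of all genes, at -0.41 and -0.63 for Apoa1 and -0.42 and -0.59 for Fgg. Between the runs Apoa1 averaged 1295 and 748 CPM in liver tissue and 1367 and 472 in perfusion, and Fgg 924 and 521, and 998 and 420. The part of gene detection and of the run in this group was not tested. The next groups were far smaller: Adk and Dpyd with an unnamed gene model, the metallothioneins Mt1 and Mt2, Gstp1 with Traf5, and Erdr1 with Rapgef4. Rapgef4 averaged 634 CPM in the first and 1790 in the second run in liver tissue, and 758 and 1644 in perfusion.

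Ghr was most like Lifr (rho 0.31 and 0.40), Serpina6 (0.29 and 0.34), Slc41a2 (0.33 and 0.31) and the choline kinase Chka (0.42 and 0.29). None of the 21 cell cycle genes passed the filter. The list summed to more than 1000 CPM in 7 liver tissue and 3 perfusion nuclei. Reads of at least 5 of them were found in 24 of 224 liver tissue nuclei (10.7%, interval 6.99% to 15.5%) and 10 of 300 perfusion nuclei (3.33%, 1.61% to 6.04%). Nuclei meeting this rule had medians of 6407.5 and 6600.5 genes detected, against 5961.5 and 6031.5 in the others. The part of gene detection in meeting the rule was not tested. These nuclei averaged 291 and 134 CPM of Ect2 against 14.2 and 16.8 in the others. Wdhd1, a replication factor, had 228 and 219 against 28.0 and 37.4, and the condensin gene Smc4 181 and 170 against 24.96 and 20.03. Ckap2l, a spindle gene, had 23.5 against 20.1 CPM in liver tissue and 148 against 34.3 in perfusion. All 4 were among the 169 variable genes, but the ratio was as low as 0.71 for Smc4, 1.53 for Wdhd1 and 1.65 for Ckap2l in 1 of the 4 runs.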

How the data were processed

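Smart-seq3xpress reads of the 2 G14.5 libraries were used. The deposited read counts per gene and nucleus are the authors' own. The submitters' processing notes name featureCounts 1.5.3, HISAT2 2.1.0, Trimmomatic 0.39 and the mouse build GRCm38. Strand use, annotation and nucleus filters are not given in the sources used here. The counts are reads, not molecules. The deposited TPM-like values of the authors divide by a length per gene and sum to 100000 per nucleus without Alb, Apoa2 and Fabp1, as seen from the values.

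Nuclei were thinned to 250000 reads without replacement, which left out 1 perfusion nucleus. No doublet caller was run. CV2 was compared with a lowess trend (span 0.3) on the log mean. The zone score uses log2(thinned reads + 1). Rank correlations are Spearman's. Some results are not reported here. Tertiles divide the nuclei of a library by score. All values are descriptions: with 1 library per preparation no test was possible, and no p-values are given. Gene positions are from GENCODE vM21, which matched 95.7% of the genes passing the filter. The scripts were checked on simulated counts. Python 3.11.15, numpy 2.4.6, scipy 1.17.1 and statsmodels 0.14.6 were used. Members, lists and alternatives were chosen with earlier results of these data known. Named genes are the 15 with the highest deposited mean and the 10 with the highest CPM, the 25 variable genes with the highest smaller ratio, the 12 zone genes outside the lists at each end with the largest smaller rho, and up to 4 members of each list, without unnamed gene models. No gene met the on/off rule, so the nearest genes are named. Lists of called genes given to complete a count, the 1000 CPM level and the partners of Slc1a2, the run genes and the other genes were named after their values were seen. Alternatives were other thresholds, filters, scores, depths, the deposited values, single libraries and, added after seeing the data, the runs of nucleus numbers and looser on/off limits.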

Additional observations from a re-analysis of the deposited data

How the results depend on the processing

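The count of variable genes followed its settings. Against 169, it was 548 at 1.5 times the trend, 36 at 3 times, 446 on the deposited values of all nuclei, 468 with a mean of at least 1 read and reads in 10% of nuclei, and 61 with a mean of at least 20 reads. It was 76 when called in each of the 4 runs, and 387 to 412 in a single library. With the 3 highest nuclei of each gene capped, 165 were called, of which 103 were among the 169, and with the SD of log2 values 158, of which 41 were. The on/off count of 0 held under each planned setting and became 8 with 40% of nuclei between and 37 with on at 10 reads and 30% between. Zone counts went from 103 and 76 to 208 and 159 at a rho of 0.2 and to 54 and 45 at 0.4. Under the other settings they stayed between 70 and 116 and between 53 and 91, with 129 to 141 and 96 to 107 in a single library. All 24 named zone genes kept their side of 0.3 under each setting in which they were examined. The 131 values of named variable genes come from settings that kept 2 times the trend, without the SD setting. Of them, 8 were below 2, 7 by run and that of Prmt10 (0.76) with capped nuclei. The share of the 100 leading genes was 30.6% and 31.7% on the deposited values. Of the 20 and the 100 leading genes, 19 and 91 were shared. The correlation of the list means was -0.79 as a median of the libraries and -0.60 with core genes alone.

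No paired analysis was possible because the 2 libraries are not compared by a test and the labels give no replicate numbers. Depth limits the low genes: 1 thinned read is 4 CPM, and intervals over nuclei leave out the error of amplification, since the deposited counts are of reads.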
